A study of Mus musculus with 4 samples.

Results

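The nuclear genes for the mitochondrial respiratory chain and the ATP synthase were followed in cultured mouse ureters with and without *Pparg*. Members were the genes whose name on the array starts with Nduf and a subunit letter, Uqcr, Cox with a number from 4 to 8, or Atp5, together with *Sdha*, *Sdhb*, *Sdhc* and *Sdhd*. There were 85 such genes of 29924 gene names: 37 of complex I, 4 of complex II, 8 of complex III, 18 of complex IV and 18 of the ATP synthase. The grouping followed the names alone. *Atp5c1-ps* is a pseudogene, and *Atp5s* and *Atp5sl* (*Dmac2l* and *Dmac2* in RefSeq) carry the name of the ATP synthase without encoding one of its subunits. Of the 85, 83 passed the brightness filter (well above background in each pool of some group) and were tested, and each of these 83 was well above background in all 8 pools. The exceptions were *Cox7b2* and *Cox8c*, isoforms of complex IV subunits known from testis, which were well above background in no pool.

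Ureters of NMRI mice were taken at birth (P0) and cultured for 8 days. *Pparg-cKO* ureters were Pax2-cre/+; Pparg (fl/fl), so that *Pparg* was deleted where Pax2-cre recombines (the epithelium of the ureter and of the duct system from which it arises). Controls were given as Pparg (fl/?) littermates without cre, the second allele not being stated. Each genotype was cultured with DMSO or with 2 µM purmorphamine, an agonist of SHH signaling, which gave 4 groups of 2 pools of ureters sorted by sex. Replicate 1 was male and replicate 2 female, and the dyes were exchanged between them, so that replicate, sex and dye cannot be told apart. On each of the 4 arrays, both treatments of 1 genotype and 1 sex were hybridised together. P-values measure the spread between these pools.

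The respiratory chain passes electrons from NADH (complex I) and succinate (complex II) through complex III to oxygen at complex IV, and the ATP synthase uses the resulting proton gradient. Most of its subunits are encoded in the nucleus and are made in every cell type, while a few subunits of complex IV have isoforms of restricted expression, such as *Cox8b* and *Cox7a1* in heart, skeletal muscle and brown fat. PPARG is a nuclear receptor best known for fat cell differentiation and, in the ureter, for urothelial differentiation.

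No member passed the test used below, and *Cox8b* alone passed a rule on the fold. For this reason the 250 bases upstream of the start site of *Cox8b* and of its widely expressed counterpart *Cox8a* are shown. Those of *Cox7a1* and *Cox7a2*, the corresponding pair for subunit 7a, are shown with them. They are RefSeq sequences in GRCm38.p6, written 5′ to 3′ on the strand of the gene, with CG dinucleotides in capitals. *Cox8b* lies at chr7:140900447-140900696 (minus strand), *Cox8a* at chr19:7217617-7217866 (minus strand), *Cox7a1* at chr7:30183921-30184170 (plus strand) and *Cox7a2* at chr9:79759854-79760103 (minus strand).
Cox8b: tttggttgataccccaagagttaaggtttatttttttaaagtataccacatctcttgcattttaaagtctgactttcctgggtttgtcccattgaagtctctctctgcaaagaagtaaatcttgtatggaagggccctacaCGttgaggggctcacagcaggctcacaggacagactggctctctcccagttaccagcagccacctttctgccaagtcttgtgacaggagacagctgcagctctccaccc
Cox8a: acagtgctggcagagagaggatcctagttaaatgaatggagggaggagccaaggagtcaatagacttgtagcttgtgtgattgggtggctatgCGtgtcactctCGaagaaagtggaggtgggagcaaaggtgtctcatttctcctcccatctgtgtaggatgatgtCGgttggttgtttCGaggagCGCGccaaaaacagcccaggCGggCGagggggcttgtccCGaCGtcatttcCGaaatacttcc
Cox7a1: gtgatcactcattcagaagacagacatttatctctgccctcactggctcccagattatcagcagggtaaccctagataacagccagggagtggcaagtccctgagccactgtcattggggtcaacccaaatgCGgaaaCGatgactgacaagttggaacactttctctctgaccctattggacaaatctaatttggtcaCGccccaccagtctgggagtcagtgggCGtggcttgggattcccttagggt
Cox7a2: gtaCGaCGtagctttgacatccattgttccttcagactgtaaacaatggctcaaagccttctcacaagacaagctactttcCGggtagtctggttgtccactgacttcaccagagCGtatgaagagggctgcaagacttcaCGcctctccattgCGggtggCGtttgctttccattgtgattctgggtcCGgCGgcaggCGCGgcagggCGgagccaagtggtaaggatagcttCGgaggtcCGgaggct

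The number of CG dinucleotides differed within these pairs, which were picked for their isoforms. The upstream sequence of *Cox8b* held 1 CG, the lowest number among the 75 promoters that the RefSeq table holds for 69 of the members, and that of *Cox7a1* held 4. *Cox8a* had 11 and *Cox7a2* 14. The testis isoforms *Cox6b2* and *Cox7b2* had 8 and 9. Low numbers were not confined to restricted isoforms, since the widely expressed *Ndufc2*, *Cox7b* and *Uqcr10* had 4, 5 and 5. *Cox4i2*, *Cox6a2*, *Cox8c* and *Ndufa4l2* were not among the 69, so that restricted isoforms cannot be judged as a class. The median was 14 over these 75 promoters and 6 over all 32851 promoters of the table. On either strand, the letters CCGGAAG, a core of ETS factor sites, were found in 12 of the 75 (16%) and in 6.91% of all promoters. The letters AGGTCA, a core of nuclear receptor sites, were found in 11 (14.7%) and in 14% of all promoters, and CCAAT in 32 (42.7%) and in 33.8%. TATAAA was found in 7 (9.33%) and in 12.4% of all promoters. Upstream of *Cox8b* none of these 4 motifs was present in this window, and *Cox8a* and *Cox7a1* held CCAAT. Motifs of NRF1 (10 letters), of ERR (9 letters) and DR1 (13 letters, a direct repeat of the nuclear receptor core) were searched as well. NRF1 showed the largest difference of all motifs searched, with 15 of the 75 (20%) against 4.98% of all promoters. ERR was found in 1 (1.33%) and in 0.387% of all promoters, and DR1 in 0 and in 0.0335%. Upstream of *Cox8b* these were absent too. All these matches describe the sequence and are no evidence of binding.

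The probe of *Cox7a1* is shown because its ends lie 612 bases apart in the genome (mm9 chr7:30970337-30970948, plus strand) although it is 60 bases long, so that it spans a splice junction and reads spliced RNA.
Cox7a1 probe: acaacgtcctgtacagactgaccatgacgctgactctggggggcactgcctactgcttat

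The 4 arrays carried 39429 probes with 4 spots each, and between 66.3% and 70.5% of the probes of a dye were well above background. No spot was saturated. The *Pparg* probe does not check the genotype, because the mutant allele still makes an RNA that lacks only the deleted exons: its log2 intensity was 14.79 and 15.31 in the control DMSO pools and 15.55 and 15.58 in the *Pparg-cKO* DMSO pools. With purmorphamine it was 15.10 and 15.18 in control and 15.95 and 16.10 in *Pparg-cKO* pools. The log2 fold change was 0.51 ± 0.17 (SE, adjusted p = 0.2, limma) with DMSO and 0.88 ± 0.17 (adjusted p = 0.047) with purmorphamine. *Ptch1*, a target of SHH signaling, rose with purmorphamine by 1.00 ± 0.12 (log2 fold change ± SE, adjusted p = 0.043, limma) in control and by 1.62 ± 0.12 (adjusted p = 0.014) in *Pparg-cKO* ureters. *Gli1*, the other target looked up, had values of 1.06 ± 0.25 (adjusted p = 0.11, limma) and 1.34 ± 0.25 (adjusted p = 0.052), neither of them below 0.05. Markers of the labelled tissue were present: all 9 urothelial and all 7 smooth muscle markers listed were well above background in all 8 pools.

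To ask whether the chain as a whole changed without *Pparg*, *Pparg-cKO* pools were compared with control pools, first with DMSO. None of the 83 members passed limma's test (Benjamini-Hochberg adjusted p below 0.05) in either direction, where 2.00% of the 20231 genes tested were called higher and 1.90% lower. At an unadjusted p below 0.05 there were 3 members, *Cox8b*, *Uqcr10* and *Uqcrc1*, all lower in the mutant, against 3191 of all genes. The same comparison with purmorphamine, which used the other pool of each array, gave no call among the members either, where 1.24% of all genes were called higher and 1.90% lower. *Sdha* joined the same 3 genes at an unadjusted p below 0.05, again lower in the mutant, against 3157 of all genes. *Uqcr10* was singled out after its values were seen.

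By the fold rule of the study's methods (at least 1.5-fold the same way in both replicates and a scaled intensity over 100), *Cox8b* was the only member of the 85 that passed. It was lower in *Pparg-cKO* ureters with DMSO, a direction in which 1.5% of all 29924 gene names passed and no further member, and lower again with purmorphamine, where 1.65% passed. In the higher direction 1.33% of all names passed with DMSO and 1.56% with purmorphamine, and no member did.

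*Cox8b*, the muscle and brown fat isoform of subunit 8 of complex IV, was bright in control ureters. Its log2 intensity was 14.48 and 14.75 in the control DMSO pools and 14.49 and 14.41 in the control purmorphamine pools. In the *Pparg-cKO* ureters it was 12.58 and 12.04 with DMSO and 11.26 and 13.39 with purmorphamine. All 4 mutant pools were below all 4 control pools, and the mutant purmorphamine pools lay farther apart than any other group. The log2 fold change with DMSO was -2.30 ± 0.62 (SE, n = 2 pools against 2), which is 4.93-fold lower with a 95% interval from 1.78-fold to 13.7-fold lower (adjusted p = 0.11, limma). With purmorphamine it was -2.13 ± 0.62, or 4.37-fold lower with an interval from 1.57-fold to 12.1-fold (adjusted p = 0.15, limma). By replicate, the decrease with DMSO was 3.73-fold in replicate 1 and 6.51-fold in replicate 2, and with purmorphamine 9.41-fold and 2.03-fold.

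The size with purmorphamine therefore rested on which *Pparg-cKO* array was used. Without *Pparg-cKO* replicate 1 the log2 fold change with purmorphamine was -1.06, and without *Pparg-cKO* replicate 2 it was -3.19. With DMSO the values were -2.57 and -2.03 when the same arrays were left out. In such fits the lone pool is assumed to vary like the other groups, and the spread between the *Pparg-cKO* pools is not seen. They give a size and no test. Over all 10 alternative settings the log2 fold change ran from -2.57 to -2.03 with DMSO and from -3.19 to -1.06 with purmorphamine. In no alternative that kept all 4 arrays did *Cox8b* pass the test. The probe of *Cox8b* (mm9 chr7:148084852-148084911, minus strand) was the only one of the gene on the array.

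**Figure D1:**
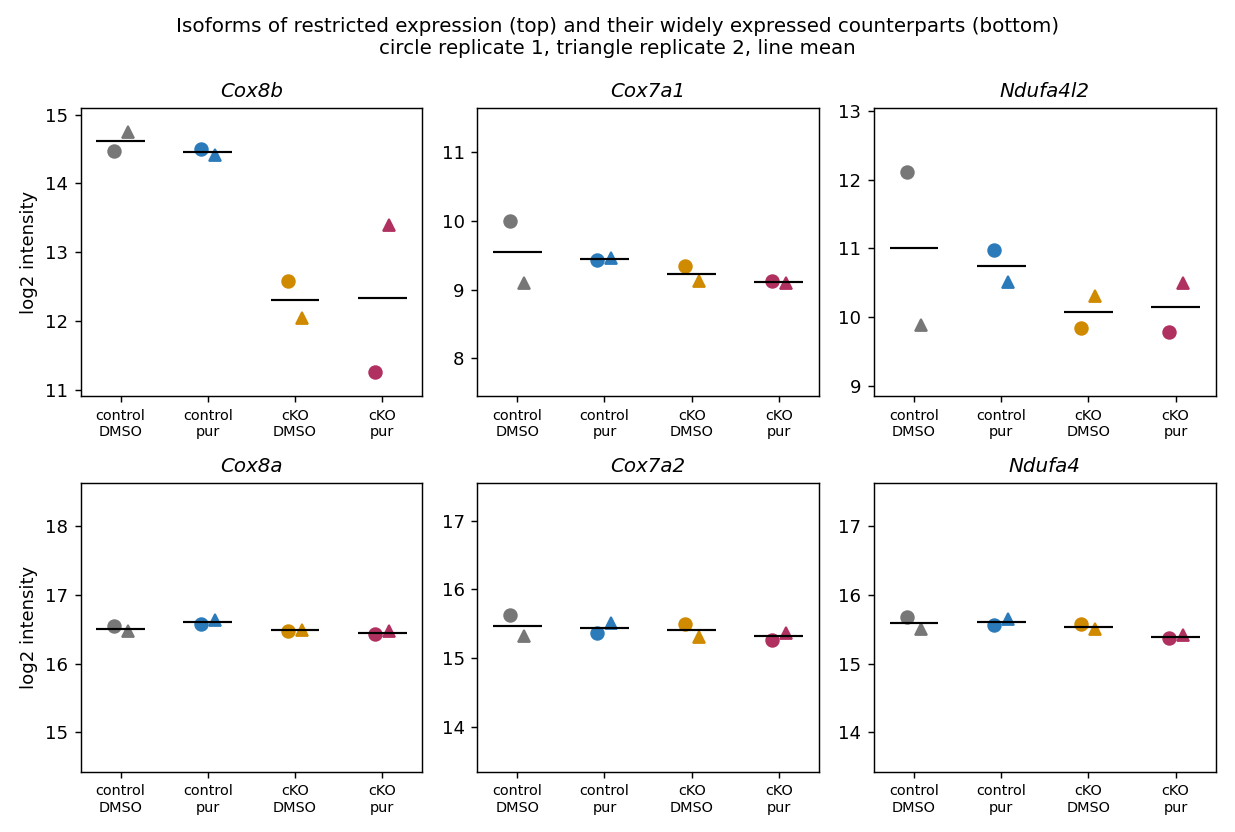
Log2 intensity (y axes, all of the same span) of 3 isoform genes of restricted expression and of their widely expressed counterparts in the 4 groups (x axes), with circles for replicate 1, triangles for replicate 2 and lines for the group means. *Cox8b* is at most 13.39 in the mutant pools and at least 14.41 in the control pools, while *Cox8a*, *Cox7a2* and *Ndufa4* vary little.

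Fat cell markers moved with *Cox8b*. Of the 10 markers of the fat cell list 9 were tested, and all 9 were lower in the mutant in both comparisons, with a median log2 fold change of -1.60 with DMSO and -2.18 with purmorphamine. Only *Lipe*, the hormone-sensitive lipase, passed the test. *Lipe* was -1.71 ± 0.32 (adjusted p = 0.036, limma) with DMSO and -1.67 ± 0.32 (adjusted p = 0.044) with purmorphamine. The log2 of the summed level of the 9 markers was 18.48 to 18.99 in the control DMSO and 18.24 to 18.64 in the control purmorphamine pools, against 17.69 to 18.03 and 16.27 to 17.90 in the corresponding mutant pools. *Adipoq*, the gene of the fat cell hormone adiponectin, was 15.54 and 16.05 in the control DMSO pools and 11.42 and 14.51 in the mutant purmorphamine pools, the lower value lying in the same pool as the lowest *Cox8b*. The part of fat cells in the *Cox8b* result was not tested. In pooled ureters, fewer cells of a type and less RNA per cell cannot be told apart.

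The genes of the brown fat list did not move one way: of the 6 tested, 4 were below 0 and 2 above 0 in each comparison. Of its 7 genes, *Elovl3* was well above background in no pool and *Ucp1*, the uncoupling protein that defines brown fat, in 4 of 8. *Cidea* was lower in the mutant with DMSO (-1.47 ± 0.29, adjusted p = 0.047, limma), and *Cpt1b*, the muscle and brown fat carnitine palmitoyltransferase, with purmorphamine (-0.89 ± 0.14, adjusted p = 0.025, limma). The 2 above 0 were *Ppargc1a*, a coactivator (0.51 ± 0.21 with DMSO, adjusted p = 0.30, and 0.44 ± 0.21 with purmorphamine, adjusted p = 0.38), and *Dio2*, the thyroid hormone deiodinase (0.32 ± 0.23, adjusted p = 0.62, and 0.49 ± 0.23, adjusted p = 0.39). Both genes were above 0 in each replicate. Of the striated muscle list, 11 of 13 genes were tested and none was called lower in either comparison, while *Mb* and *Myl7* were called higher with DMSO, *Myl7* being well above background in 2 of 8 pools. *Cox6a2*, the muscle isoform of subunit 6a, was dim and did not separate the genotypes, with log2 intensities of 8.40 and 7.98 in control and 8.08 and 8.26 in mutant DMSO pools and a log2 fold change of -0.02 ± 0.23 (adjusted p = 0.98, limma).

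*Cox7a1*, which shares the muscle and brown fat expression of *Cox8b*, did not show its pattern. Its log2 intensity was 10.003 and 9.09 in control DMSO, 9.43 and 9.46 in control purmorphamine, 9.34 and 9.13 in *Pparg-cKO* DMSO and 9.12 and 9.10 in *Pparg-cKO* purmorphamine pools. The highest value was that of control DMSO replicate 1, and the genotypes overlapped with DMSO but not with purmorphamine. The change was -0.31 ± 0.27 (95% interval -0.95 to 0.32, adjusted p = 0.68, limma) with DMSO and -0.33 ± 0.27 (-0.97 to 0.30, adjusted p = 0.65) with purmorphamine. *Cox7a2*, the widely expressed counterpart, changed by -0.06 ± 0.14 and -0.12 ± 0.14 in these comparisons (adjusted p = 0.90 and 0.77, limma).

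*Ndufa4l2*, a paralog of *Ndufa4* known to respond to low oxygen, was the member with the second largest decrease in both comparisons. With DMSO the decrease rested on 1 pool. Its log2 intensity was 12.11 and 9.89 in control DMSO and 10.97 and 10.51 in control purmorphamine pools, and between 9.79 and 10.50 in the 4 mutant pools. The change with DMSO was -0.93 ± 0.65 (95% interval -2.48 to 0.63, adjusted p = 0.60, limma), made up of -2.27 in replicate 1 and 0.41 in replicate 2. With purmorphamine, which does not use that pool, it was -0.60 ± 0.65 (95% interval -2.15 to 0.96, adjusted p = 0.76), with -1.18 in replicate 1 and -0.01 in replicate 2, and both mutant pools (9.79 and 10.50) were below both control pools. The pool with the high value, control DMSO replicate 1, also held the highest *Ucp1* (8.08, against 6.56 in replicate 2) and the highest *Cox7a1*. *Car9*, picked from a list of 16 hypoxia response genes, was 9.93 and 8.84 in the same 2 pools. Over that list the median change with DMSO was -0.43 in replicate 1 and -0.03 in replicate 2. The part of low oxygen was not tested. *Ndufa4*, which is now counted with complex IV in spite of its name, was 15.68 and 15.50 in control DMSO and 15.58 and 15.50 in mutant DMSO pools.

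**Figure D2:**
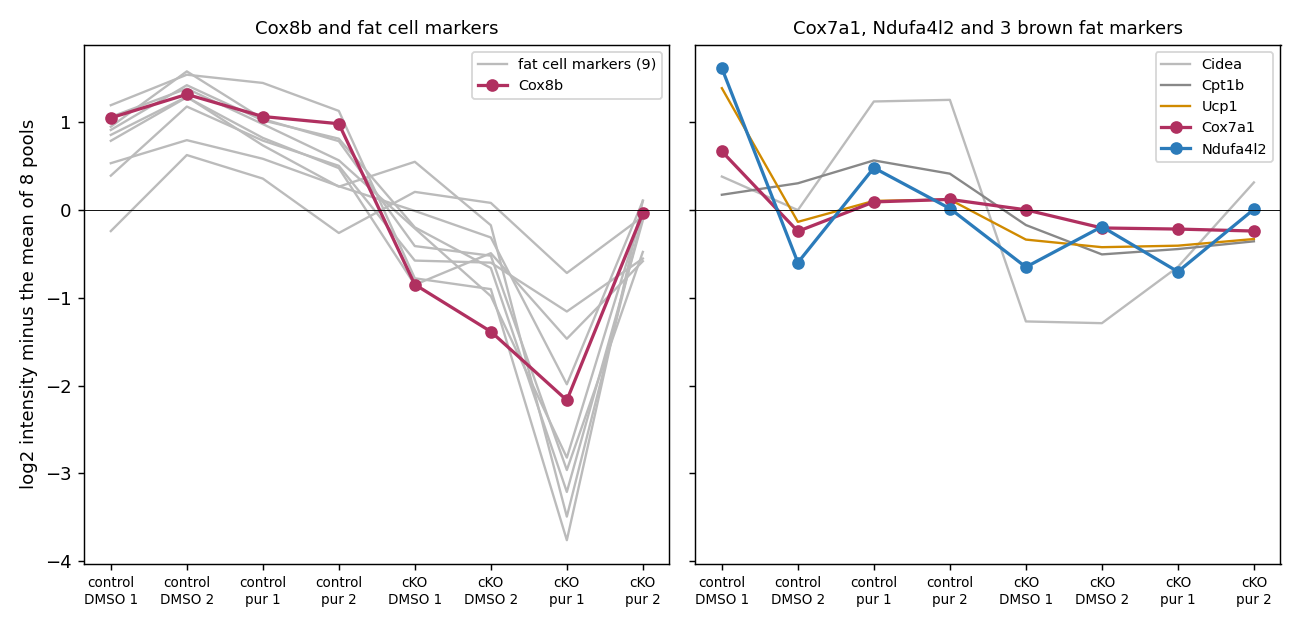
Log2 intensity minus the mean of the 8 pools (y axis) in each pool (x axis: group and replicate number), for *Cox8b* with the 9 fat cell markers tested (left) and for *Cox7a1* and *Ndufa4l2* with *Cidea*, *Cpt1b* and *Ucp1* (right); the lines only join the values of a gene. *Cox8b* and most fat cell markers are lowest in *Pparg-cKO* purmorphamine replicate 1, and *Cox7a1*, *Ndufa4l2* and *Ucp1* are highest in control DMSO replicate 1. *Cidea*, *Cpt1b* and *Ucp1* were picked from the 7 genes of the brown fat list and do not stand for it. Its genes *Ppargc1a* and *Dio2*, not drawn, had higher means in the mutant in both comparisons.

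Genes whose levels followed these isoforms were looked up among all 20231 tested, as a description over 8 pools that share arrays in pairs. The highest Pearson's r with *Cox8b* were those of *Tshr* (0.993), *Art3*, *A530016L24Rik*, *Ces1d* and *Mogat1* (0.983). With *Adipoq* it was 0.930 and with *Plin1* 0.933. *Cox7a1* had an r of 0.472 with *Cox8b* and of 0.946 with *Ucp1*, which was highest in the same pool. With *Cidea*, the other brown fat marker looked up, its r was 0.389. With the fat cell markers *Plin1*, *Adipoq* and *Fabp4* it was 0.416, 0.409 and 0.378. Most like *Cox7a1* were *Gm30827*, *Smim20*, *Tmem174*, ENSMUST00000190969 and *Guca1a* (0.983 to 0.971). *Ndufa4l2* was most like *Dnlz* (0.972), *B230311B06Rik*, *Galk1*, an unnamed probe and *Tmem160* (0.963).

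The remaining complex IV isoforms showed no call. *Cox4i2*, the isoform of subunit 4 known from lung and from low oxygen, was 8.49 and 7.93 in control and 7.84 and 7.88 in mutant DMSO pools, a change of -0.34 ± 0.19 (adjusted p = 0.47, limma). *Cox6b2*, the testis isoform of subunit 6b, changed by -0.18 ± 0.29 with DMSO (adjusted p = 0.85) and by 0.13 ± 0.29 with purmorphamine (adjusted p = 0.91). *Cox4i1*, *Cox6a1*, *Cox6b1*, *Cox7a2l*, *Cox7b* and *Cox8a*, the widely expressed forms, lay between -0.17 and 0.04 in both comparisons.

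The chain outside *Cox8b* moved little and mostly in a single direction. With DMSO, 70 of the 82 other members tested had a log2 fold change below 0, with a median of -0.08, where 49.1% of all genes were below 0 and their median was 0.00. With purmorphamine 75 of 82 were below 0, with a median of -0.11 against -0.00 for all genes. The middle 50% of the 82 changes ran from -0.13 to -0.02 with DMSO and from -0.15 to -0.05 with purmorphamine. Both mutant pools were below both control pools for 25 of the 83 members with DMSO and for 40 with purmorphamine, where 21.6% and 24.5% of all genes did so. The reverse held for 1 member in each comparison, against 21.0% and 23.2% of all genes. The medians by replicate were -0.09 and -0.05 with DMSO and -0.13 and -0.06 with purmorphamine. The 95% interval of a single member had a median half-width of 0.27.

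The size of the shift depended on the arrays. Without control replicate 1 the median of the 83 members with DMSO was -0.02 and 47 of them were below 0, while without control replicate 2 it was -0.13. With purmorphamine the median was -0.04 without *Pparg-cKO* replicate 1 and -0.17 without *Pparg-cKO* replicate 2.

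The precision allowed limits to be set. For 78 of the 83 members with DMSO and 74 with purmorphamine, the 95% interval of the change lay within 1.5-fold either way, where 66.5% and 66.4% of all genes had such an interval. The members are bright genes, with a median log2 intensity of 15.04 against 11.28 for all genes tested, and the median of their SD over the 8 pools was 0.11 against 0.18. The 4 members with the largest SD over the pools were *Cox8b* (1.32), *Ndufa4l2* (0.77), *Cox6b2* (0.36) and *Cox7a1* (0.31), all isoforms of restricted expression.

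**Figure D3:**
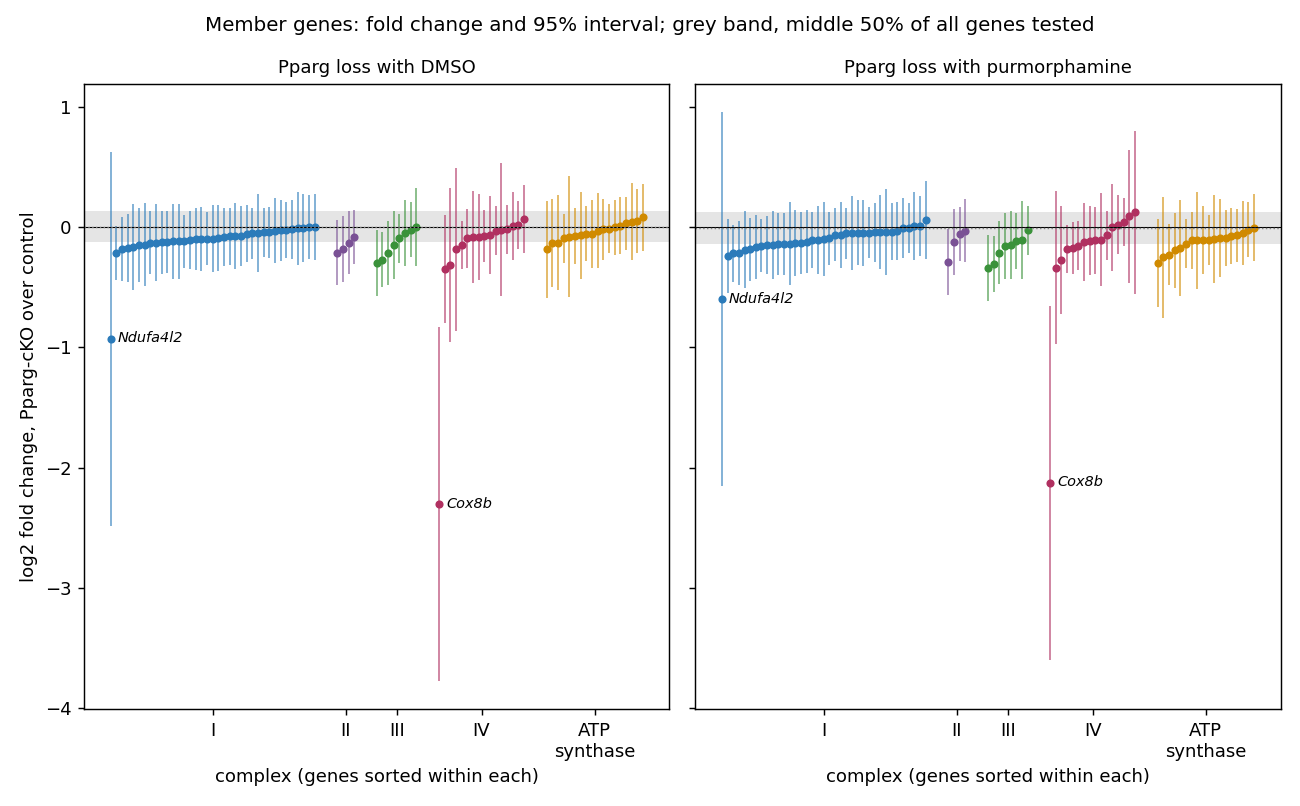
Log2 fold change of *Pparg-cKO* over control (y axis) of the 83 members tested, sorted within each complex (x axis), with 95% intervals from limma, for DMSO (left) and purmorphamine (right); the grey band holds the middle 50% of all genes tested and the dotted line their median. Most points lie slightly below 0 and within the band, and *Cox8b* is alone near -2.

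Complex III held the members with the clearest small decreases. Its 8 genes had a median of -0.12 with DMSO and -0.15 with purmorphamine, and 7 and 8 of them were below 0. *Uqcrc1*, a core subunit, was 14.60 and 14.47 in control DMSO, 14.17 and 14.30 in mutant DMSO, 14.43 and 14.60 in control purmorphamine and 14.09 and 14.26 in mutant purmorphamine pools. The mutant pools lay below the control pools under both treatments. The change was -0.30 ± 0.12 (adjusted p = 0.27, limma) and -0.34 ± 0.12 (adjusted p = 0.21). *Uqcr10*, a small subunit, was 15.68 and 15.62 in control and 15.41 and 15.35 in mutant DMSO pools, a change of -0.27 ± 0.10 (adjusted p = 0.24), and -0.31 ± 0.10 (adjusted p = 0.18) with purmorphamine. Its 3 probes gave -0.27, -0.24 and -0.44 with DMSO. *Uqcrfs1*, the Rieske iron-sulfur protein, was -0.15 ± 0.12 in both comparisons, and *Uqcrc2*, the other large core subunit, -0.02 ± 0.10 and -0.11 ± 0.10.

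All 4 complex II genes, which also serve the citric acid cycle, were below 0 in both comparisons, and none passed the test. *Sdha*, the flavoprotein, was 14.80 and 15.09 in control and 14.71 and 14.75 in mutant DMSO pools, and 15.07 and 15.04 in control and 14.75 and 14.78 in mutant purmorphamine pools. Its change was -0.21 ± 0.11 (adjusted p = 0.46, limma) and -0.29 ± 0.11 (adjusted p = 0.29). *Sdhb*, *Sdhc* and *Sdhd*, the iron-sulfur subunit and the membrane anchors, lay between -0.18 and -0.03.

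Complex I had a median of -0.09 in both comparisons, with 35 and 34 of its 37 genes below 0. The core subunits *Ndufs1* and *Ndufv1* had log2 fold changes of -0.13 ± 0.11 and -0.18 ± 0.11 with DMSO (adjusted p = 0.69 and 0.54, limma). Of complex IV, 13 and 12 of the 16 genes tested were below 0, with medians of -0.08 and -0.11. *Cox5a* was 16.21 and 16.18 in control and 16.03 and 16.07 in mutant DMSO pools, a change of -0.15 ± 0.08 (adjusted p = 0.48, limma).

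The ATP synthase differed least with DMSO. Its 18 genes had a median of -0.04, with 12 below 0, and a median of -0.11 with purmorphamine, with all 18 below 0. The core subunits *Atp5a1* and *Atp5b* changed by -0.01 ± 0.09 and -0.07 ± 0.15 with DMSO and by -0.14 ± 0.09 and -0.10 ± 0.15 with purmorphamine (adjusted p = 0.54 or higher, limma). The 3 members with the largest change upward were *Atp5sl*, *Cox5b* and *Atp5j* with DMSO (0.08, 0.07 and 0.05), and *Cox6b2*, *Cox6a2* and *Ndufb6* with purmorphamine (0.13, 0.09 and 0.06).

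Other mitochondrial genes of nuclear origin were set beside the chain. Among 37 assembly factors tested, 32 were below 0 with DMSO (median -0.10) and 33 with purmorphamine (median -0.11), and none was called. Among 17 citric acid cycle genes 16 were below 0 in each comparison, with medians of -0.15 and -0.21 and no call. The 77 mitochondrial ribosomal protein genes had medians of -0.05 and -0.08 with no call, and the 78 cytosolic ribosomal protein genes tested had medians of 0.01 and 0.03. The shift was not confined to mitochondrial lists. Of 20 glycolysis genes, 14 were below 0 with DMSO (median -0.05) and 18 with purmorphamine (median -0.18), with no call. Of 16 hypoxia response genes, 14 and 12 were below 0 (medians -0.18 and -0.21), and 1 was called lower with DMSO. Among the 16 regulators of mitochondrial biogenesis, *Ppara*, a relative of *Pparg* that drives fatty acid oxidation, was called lower with DMSO (-1.13 ± 0.19, adjusted p = 0.027, limma) and with purmorphamine (-1.20 ± 0.19, adjusted p = 0.028), and *Ppard* lower with DMSO (-0.49 ± 0.09, adjusted p = 0.042). *Esrra* was -0.37 ± 0.10 with DMSO (adjusted p = 0.11), *Ppargc1a* 0.51 ± 0.21 (adjusted p = 0.30), *Nrf1* 0.09 ± 0.09 and *Tfam* -0.15 ± 0.13, and none of these was called.

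Markers of other cell types moved with the genotype as well. Of the 9 urothelial markers 7 were below 0 with DMSO and 9 with purmorphamine, and *Krt20*, *Upk1a* and *Upk1b* were called lower with DMSO. The log2 of their summed level was 18.36 to 18.54 in control and 17.98 to 18.21 in mutant DMSO pools. The 4 endothelial markers had a median of 0.61 with DMSO, with *Kdr* called higher (0.88 ± 0.16, adjusted p = 0.035, limma), and of 0.58 with purmorphamine, with all 4 above 0 and none called. Of 6 kidney tubule markers tested, *Umod* and *Slc12a1* were called higher with DMSO (adjusted p = 0.013 and 0.0029, limma) and none with purmorphamine. Both were dim: *Slc12a1*, for example, was well above background in 2 of 8 pools. The 7 smooth muscle and the 6 mesenchyme markers had medians of 0.00 and 0.01 with DMSO, but the replicates disagreed, with medians of 0.30 and -0.42 for smooth muscle and 0.13 and -0.11 for mesenchyme. *Prm1*, a sperm chromatin gene, was well above background in 4 of 8 pools. Its log2 intensity was 12.24 and 11.95 in mutant and 6.23 and 6.16 in control DMSO pools, the latter as dim as genes not well above background in any pool, so that no fold is given. *Prm2*, *Ldhc* and *Odf1* of the same list were well above background in no pool. The part of cell composition in the small shift of the respiratory chain was not tested.

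The 10 mitochondrially encoded genes on the array are products of the mitochondrial genome and form the core of the same complexes. The probe named for *ND3* is placed on a nuclear chromosome by the file. Their median change by replicate was 0.64 and -0.35 for *Pparg* loss with DMSO and -0.31 and 0.47 with purmorphamine. *CYTB*, the mitochondrial subunit of complex III, was 16.04 and 16.80 in control DMSO and 16.81 and 16.14 in control purmorphamine pools, so that on both control arrays the pool labeled with AlexaFluor647 was the higher. In the mutant it lay between 16.33 and 16.71. None of the 10 was called in any comparison.

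**Figure D4:**
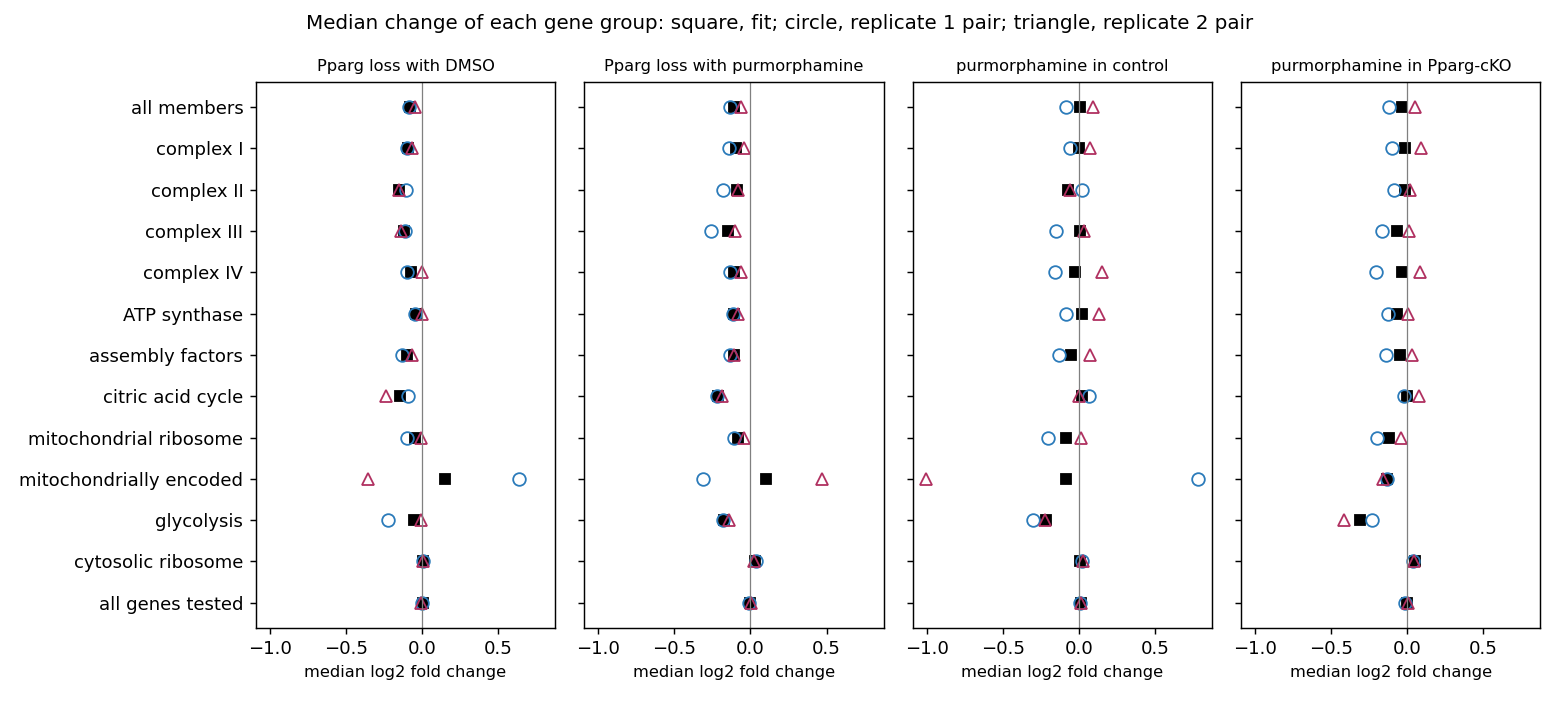
Median log2 fold change (x axes) of the respiratory chain genes, each complex and other gene groups (y axis) in the 4 comparisons; squares are the medians from the fit, circles those of the replicate 1 pair and triangles those of the replicate 2 pair. The nuclear groups of the mitochondrion lie slightly below 0 for *Pparg* loss, and so do the glycolysis genes. For purmorphamine the replicate medians of all members lie on either side of 0 in both genotypes, which does not hold for every group shown.

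To ask whether SHH signaling acts on the chain, purmorphamine was compared with DMSO within each array. No member was called in control ureters, where 0.405% of all genes were called higher and 1.12% lower, and no member had an unadjusted p below 0.05 (limma), against 3968 of all genes. In *Pparg-cKO* ureters no member was called either, where 2.02% of all genes were called higher and 3.1% lower, and 2 members, *Cox6b2* and *Cox5a*, had an unadjusted p below 0.05, against 4495 of all genes. By the fold rule no member passed in any direction, while 1.41% and 1.89% of all gene names passed higher and lower in control and 2.00% and 2.47% in *Pparg-cKO* ureters. The pools of the treatments did not overlap for 10 members higher and 13 lower in control (24.9% and 22.0% of all genes), and for 10 higher and 15 lower in *Pparg-cKO* ureters (26.5% and 28.3% of all genes).

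The medians of the 83 members were 0.00 in control and -0.03 in *Pparg-cKO* ureters, against 0.02 and -0.00 for all genes. By replicate they were -0.09 and 0.10 in control and -0.12 and 0.05 in *Pparg-cKO* ureters. The sign thus followed the replicate, and with it the sex and the dye, in both genotypes. For 75 and 76 of the 83 members the 95% interval lay within 1.5-fold either way.

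*Cox6b2* had the largest increase with purmorphamine in *Pparg-cKO* ureters. Its log2 intensity was 11.19 and 10.97 with DMSO and 11.84 and 11.41 with purmorphamine, and the pools did not overlap. The change was 0.55 ± 0.15 (adjusted p = 0.11, limma), and 0.24 ± 0.15 (adjusted p = 0.46) in control. *Cox7a2l*, which takes part in joining complexes III and IV, was higher on all 4 arrays, by 0.26 and 0.19 in control and 0.24 and 0.26 in *Pparg-cKO* ureters, and its 3 probes gave between 0.19 and 0.31 in control (adjusted p = 0.31 for the brightest probe). *Cox5a* was lower on all 4 arrays, by 0.25 and 0.22 in control, where its pools were 16.21 and 16.18 with DMSO and 15.97 and 15.97 with purmorphamine, a change of -0.23 ± 0.10 (adjusted p = 0.29). In *Pparg-cKO* ureters it was -0.27 ± 0.10 (adjusted p = 0.22). *Uqcrq*, a small subunit of complex III, was also lower on all 4 arrays, with -0.21 ± 0.10 in both genotypes (adjusted p = 0.34 and 0.32, limma).

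The other members with the largest changes were *Ndufa4l2* (-0.26 ± 0.41), *Atp5s* (0.24 ± 0.16) and *Cox6b2* in control, and *Ndufa11* (0.26 ± 0.16) and *Atp5g1* (-0.21 ± 0.10) in *Pparg-cKO* ureters. The 2 probes of *Atp5g1* gave -0.21 and 0.08. *Cox8b* changed by -0.16 ± 0.61 in control (95% interval -1.72 to 1.40, adjusted p = 0.93, limma) and by 0.02 ± 0.61 in *Pparg-cKO* ureters (-1.54 to 1.57, adjusted p = 0.99). Its replicates in *Pparg-cKO* ureters were -1.32 and 1.35 and thus of opposite sign. Without *Pparg-cKO* replicate 1 the value there was 1.35, which rests on the array that was left. In the settings that kept all 4 arrays no member was called in this comparison.

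The difference between the purmorphamine effects of the genotypes was tested as a contrast of the log ratios. No member was called, none had an unadjusted p below 0.05, and 0% of all genes were called, although 671 genes had an unadjusted p below 0.05 (limma). For 56 of the 83 members the 95% interval of this difference lay within 1.5-fold either way. For *Cox8b* it ran from -2.03 to 2.38 on the log2 scale.

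Members with several probes gave a further measure of error. For 29 members with more than 1 probe tested, the largest gap between the probes of a gene had a median of 0.07 for *Pparg* loss with DMSO and 0.08 with purmorphamine, and the probes of 10 and 6 of these genes disagreed in sign. The largest gaps were 0.20 (*Uqcr10*) and 0.32 (*Ndufa3*).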

How the data were processed

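RNA from pools of cultured ureters was measured on 4 two-color Agilent arrays. The deposited scanner files give, for every spot, an unnormalized mean intensity and a local background intensity; per the file headers, the processed intensity was background-subtracted and dye-normalized by the scanner software (Feature Extraction 12.2.0.7; the submitters' processing notes name 10.7.3.1). The deposited log10 ratio served only to check dye direction. The value table of the authors holds a score that behaves as a fold with a sign (treated against vehicle), whose normalization is not given in the sources used here.

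Intensities were corrected with normexp (offset 50) and loess within arrays and Aquantile between arrays (limma 3.58.1, R 4.3.3, data.table version 1.17.8), and spots of a probe were averaged. A probe was kept where each pool of some group was well above background (27066 probes), and the brightest stood for its gene. Genotypes were compared in a separate-channel fit (intraspot correlation 0.0636, from 4000 probes drawn at random), treatments by the log ratio within arrays, with Benjamini-Hochberg adjustment over 20231 genes at 0.05. For the fold rule, processed intensities were scaled to a 75th percentile of 1500 with a floor of 15. The fits were tested on simulated data. The number of arrays limits the precision.

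Genes were named by a rule: subunits with tissue isoforms, complex II and core subunits, members called or past the fold rule, and the 3 largest changes each way; for likeness, the 5 genes of highest r. Members and lists were chosen with earlier results of these data known. P-values measure the spread between these pools. Of 85 members, 81 were matched to RefSeq by accession, 3 under another symbol. Alternatives changed the signals used, the scaling, the filter, the choice of probe, the fit and the arrays. All 4 arrays shared a slide and a scan. One item of the named genes is not reported here.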

Additional observations from a re-analysis of the deposited data

Results flagged for a closer look

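*Cox8a*, the widely expressed form of subunit 8, had log2 ratios of purmorphamine over DMSO above 0 on both control arrays (0.03 and 0.15) and below 0 on both *Pparg-cKO* arrays (-0.04 and -0.02), which singled it out. The difference of the effects, *Pparg-cKO* minus control, was -0.13 and did not pass limma's test of it (adjusted p = 1).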

How the results depend on the processing

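Counts of members called stayed at 0 except where named here. With DMSO, *Pparg* loss called 1 member (*Cox8b*) without either *Pparg-cKO* array (range over the arrays left out 0 to 1); with purmorphamine it called 1 (*Cox8b*) without *Pparg-cKO* replicate 2 (range 0 to 1) and 1 (*Uqcr10*, -0.53, adjusted p = 0.043) with no normalization between arrays. Purmorphamine in *Pparg-cKO* called 1 (*Cox8b*) without *Pparg-cKO* replicate 1 (range 0 to 1). The replicate block, for numbers that share sex and dye but no stated litter, called 0 members in each comparison and left the medians at -0.08, -0.11, 0.00 and -0.03; the replicate deviations of the groups compared correlated at -0.15 and 0.47 across genes for *Pparg* loss. The member median for *Pparg* loss was -0.30 with DMSO and -0.33 with purmorphamine without normalization between arrays, where the median of all genes was -0.15 in both, and -0.12 with DMSO with channels scaled to a common 75th percentile. Leaving out an array moved it from -0.125 to -0.0154 with DMSO and from -0.167 to -0.0432 with purmorphamine; it was below 0 in all 10 alternatives. By the fold rule, replicate 1 alone passed 5 members with DMSO and 2 with purmorphamine for *Pparg* loss, and 2 for purmorphamine in each genotype. Replicate 2 alone passed 2 for *Pparg* loss with purmorphamine, 2 for purmorphamine in control and 1 in *Pparg-cKO*. The share of all gene names that passed with a single replicate was not computed. These counts therefore have nothing to be set against and are no result about the members. A fold of at least 2 left 0 for *Pparg* loss with purmorphamine. No named gene's called value changed sign. Leave-out fits kept the intraspot correlation of the full fit.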
